A study of Mus musculus with 4 samples.

Results

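Cholesterol synthesis and sterol handling was described by 31 genes, a list of known pathway members and not a set chosen by their levels. All 31 were found among 55536 annotated genes. They comprise 19 synthesis enzymes, 5 genes of sterol sensing, 4 genes of cholesterol storage, export and its nuclear receptor, and 3 transport genes. PolyA RNA was sequenced in 4 libraries of regulatory T cells (Treg), CD4 T cells that restrain immune responses, which had been exposed to inflammation before collection, as far as their name says. The mouse was an adult male, 6 months old, of the Foxp3CreERT2 x Rosa26YFP strain, and the labels trace the primary cells to a bone marrow hematopoietic cell. In that strain a drug-inducible Cre recombinase is expressed from Foxp3, the lineage gene of Treg, and a fluorescent reporter sits in Rosa26. All libraries came from 1 biosample, and the labels number them as technical replicates, here libraries 1 to 4. There was no second group, so no value below compares inflamed with resting cells or Treg with other cells. The p-values of differences between libraries measure only their spread, which may be technical. Those of gene pairs ask whether a ratio holds over these libraries, which are not biological replicates.

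Cells build cholesterol from acetyl-CoA. The mevalonate steps give isoprenoid building blocks, which are either joined to squalene and closed into the sterol rings or passed on to protein prenylation, dolichol and ubiquinone. When membrane sterol falls, Scap carries the precursor of the SREBP transcription factors to the Golgi, where proteases release the active factor, and Insig proteins hold it back when sterol is plentiful. Excess cholesterol is esterified by Soat enzymes or exported by ABC transporters under the control of the oxysterol receptors LXR, and T cells raise synthesis when they are activated to divide.

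The libraries held 9284432, 9341328, 9325636 and 6648385 expected counts, so library 4 was the shallowest. The sterol genes took 0.239%, 0.236%, 0.188% and 0.212% of them. Markers of Treg summed to 3894 to 4724 TPM, the deposited abundance that is corrected for transcript length and library size, and all 8 were above 1 TPM in every library. Foxp3 itself was at 20.3, 21.7, 32.8 and 36.4 TPM, and Cd4 at 516, 495, 309 and 318 TPM. Markers of other cells were also present: 7 B cell markers summed to 197, 134, 93.2 and 161 TPM, and 7 erythroid markers, mostly globins, to 672, 4.12, 24.2 and 15.1 TPM. Of 8 monocyte and macrophage markers the sums were 32.3, 11.4, 8.07 and 19.5 TPM, with Lyz2 the highest at 21.9, 4.33, 4.00 and 13.4 TPM. Granulocyte markers summed to 0.110 to 8.91 TPM, with Ly6g and Camp listed at 0 throughout, and stromal and endothelial markers to 0.0700 to 0.530 TPM. Library 1 thus carried the most RNA typical of red cells, B cells and macrophages, and library 3 the least of B cells and macrophages.

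Every one of the 31 genes was at or above 1 TPM in all 4 libraries, and 23 were at or above 10 TPM in all of them. The median of their mean levels was 29.2 TPM ± 4.05 (SD over the libraries' medians, n = 4), beside 18.0 TPM for 10552 nuclear protein-coding genes of at least 1 TPM. Counts behind these levels ran from 35 (Tm7sf2 in library 4) to 4467 (Abcg1 in library 1). The range of levels ran from Abca1 at 2.09 TPM ± 0.726 (SD, n = 4) to Npc2 at 120 TPM ± 23.4. In these bulk samples, fewer cells of a type and less RNA per cell cannot be told apart.

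**Figure D1:**
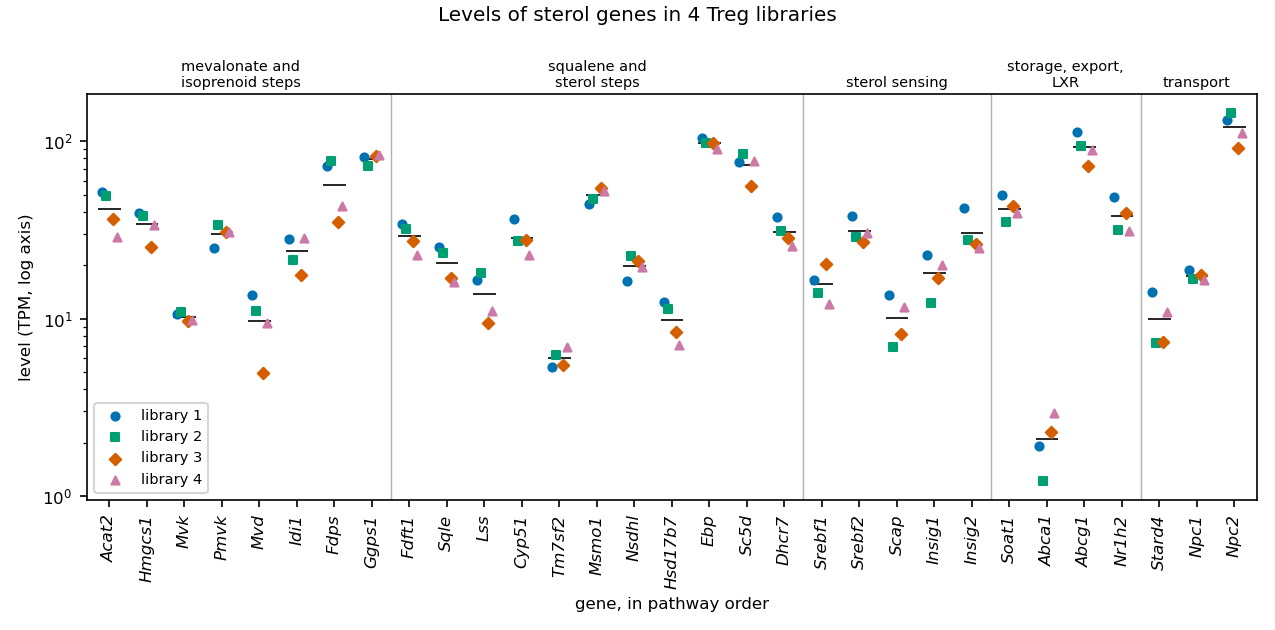
Level of each gene in TPM on a log axis, with 1 marker per library and a line at the mean of the 4 libraries, ordered by step of the pathway. Npc2, Ebp and Abcg1 have the highest means and Abca1, at 1.21 to 2.95 TPM, the lowest.

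The 8 enzymes of the mevalonate and isoprenoid steps had a median level of 32.1 TPM, and the highest levels were at the branch point. Ggps1 makes geranylgeranyl diphosphate, the lipid that anchors Rab proteins, and stood at 81.4, 72.7, 82.1 and 83.2 TPM in libraries 1 to 4. Fdps makes farnesyl diphosphate one step before it and stood at 72.8, 77.3, 35.1 and 43.0 TPM. Acat2, the cytosolic thiolase that opens the pathway, was at 51.9, 48.9, 36.4 and 28.8 TPM. Ggps1 varied the least of these 3, while Fdps and Acat2 were higher in libraries 1 and 2 than in libraries 3 and 4. Hmgcs1, which adds the third acetyl unit, was at 39.2, 37.9, 25.4 and 33.7 TPM. Idi1, the isomerase of isopentenyl diphosphate, was at 28.2, 21.5, 17.6 and 28.3 TPM. Pmvk, the second of the kinases that phosphorylate mevalonate, was at 30.1 TPM ± 3.62 (SD, n = 4), and Mvk, the first, was at 10.3 TPM ± 0.591. The lowest mean of these 8 belonged to Mvd, the decarboxylase that ends the mevalonate steps, at 13.6, 11.0, 4.97 and 9.43 TPM. Library 3 was the lowest for Mvd, Hmgcs1 and Idi1.

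Squalene and sterol steps were covered by 11 enzymes with a median of 28.6 TPM. The top values belonged to late enzymes: Ebp, a sterol isomerase, at 97.5 TPM ± 5.60 (SD, n = 4), and Sc5d, a sterol desaturase, at 73.6 TPM ± 12.2. Msmo1, the methylsterol oxidase, followed at 49.6 TPM ± 4.62. Dhcr7, the reductase of the last step of one branch, was at 37.5, 31.3, 28.5 and 25.6 TPM. Fdft1, squalene synthase and the first enzyme committed to sterols, was at 34.2, 32.0, 27.5 and 22.9 TPM. Both Dhcr7 and Fdft1 had their lowest TPM in library 4. Sqle, the squalene epoxidase, was at 25.3, 23.4, 17.0 and 16.1 TPM. Lss, which closes the ring to lanosterol, was at 16.4, 18.1, 9.46 and 11.1 TPM. For Sqle and Lss, libraries 1 and 2 lay above libraries 3 and 4 without overlap. Cyp51, the lanosterol demethylase, was at 36.2, 27.3, 27.9 and 22.9 TPM. The dehydrogenase Nsdhl (19.9 TPM ± 2.66), the ketoreductase Hsd17b7 (9.79 TPM ± 2.47) and the sterol reductase Tm7sf2 (6.02 TPM ± 0.742) were lower.

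Levels per length were also compared within pairs of genes of the same library. The log2 ratio of Fdft1 over Ggps1, the enzymes that draw on farnesyl diphosphate for sterols and for prenylation, was -1.25, -1.18, -1.57 and -1.86, a mean of -1.47 ± 0.31 (SD, n = 4) on the log2(TPM + 0.1) scale. Ggps1 was thus above Fdft1 in 4 of 4 libraries. Dhcr7 over Sc5d, the last enzymes, gave -1.26 ± 0.30, also with the same sign in 4 of 4. Hmgcs1 over Acat2 gave -0.26 ± 0.33, negative in 3 of 4 libraries, and was positive (0.59) when computed from the M4 counts. With 4 libraries the smallest p of a 2-sided exact sign-flip permutation test is 0.125, and none of the 7 pairs examined could therefore pass a threshold of 0.05. The first 2 pairs above gave that p, and 0.146 after Benjamini-Hochberg adjustment over the 7 pairs, and Hmgcs1 over Acat2 gave 0.250 before and after it.

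Shares of counts were then compared between the 4 libraries by a Poisson likelihood ratio test on library sizes scaled with edgeR, adjusted over 13045 genes. All 31 sterol genes passed the filter of a mean count of 10, and 26 of them (83.9%) differed at an adjusted p under 0.05. Of all genes tested, 68.6% did so, and the common biological coefficient of variation between the libraries was 21.3%, so a difference between libraries was usual. The test detects smaller differences at higher counts, and the sterol genes had a median of 29.2 TPM beside 14.1 TPM for the genes tested. The 2 shares were not compared at like counts. Among the enzymes 17 of 19 differed, the exceptions being Mvk (adjusted p = 0.157) and Tm7sf2 (adjusted p = 0.216). The others that did not pass were Srebf1, Insig2 and Npc1. A difference with a span of at least 2-fold was found for 5 of the 31, where 15.8% of all genes had one. These were Mvd (2.65-fold between the highest and the lowest library), Fdps (2.52-fold), Scap (2.27-fold), Abca1 (2.22-fold) and Lss (2.08-fold).

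The spread of the enzymes had a direction. Relative to each gene's mean over libraries, the median of the 19 enzymes was 0.12, 0.27, -0.20 and -0.06 on the log2 scale in libraries 1 to 4. Library 3 was the lowest for 8 of the 19 enzymes, where 21% of all genes had their lowest value there, and it was the highest for none of them. Library 2 was the highest for 14 of the 19, where 27.6% of all genes peaked there. Library 4 was the lowest for 7 (24.4% of all genes) and library 1 for 4 (28.0% of all genes). Of the 11 squalene and sterol enzymes, 6 were lowest in library 4 and 2 in library 3. Of the 8 mevalonate and isoprenoid enzymes, 1 was lowest in library 4 and 6 in library 3. When libraries were ranked by TPM, library 2 was the highest for 6 of 19 and library 1 for 9, so the rank of libraries 1 and 2 depends on the scale. Over the 31 genes, library 3 was the lowest for 13 and the highest for 0. By total-count scaling and by the M4 counts it was the highest for 1, and by TPM for 2.

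Fdps, at chromosome 3, 89093588 to 89101959 on the minus strand of mm10, had the widest span of the enzymes after Mvd. Its expected counts were 593, 723, 308 and 274, a deviation of 0.34, 0.66, -0.67 and -0.33 in log2 from its mean once libraries were scaled (adjusted p = 1.33e-51). Libraries 1 and 2 lay above its mean and libraries 3 and 4 below it. Mvd, at chromosome 8, 122433601 to 122443422 on the minus strand, had only 152, 138, 60 and 81 counts and deviations of 0.49, 0.39, -0.91 and 0.03 (adjusted p = 5.59e-11). Library 3 alone was low for Mvd, and without that library the adjusted p was 0.0828. Lss, at chromosome 10, 76531588 to 76557138 on the plus strand, had 292, 343, 177 and 180 counts and deviations of 0.20, 0.46, -0.60 and -0.06 (adjusted p = 1.80e-14). Acat2, at chromosome 17, 12942890 to 12960747 on the minus strand, had 761, 792, 534 and 324 counts and was the lowest in library 4, at -0.47 (adjusted p = 5.15e-30). The 4 enzymes with the lowest value in library 1 went another way: Pmvk (-0.32), Nsdhl (-0.35), Msmo1 (-0.18) and Tm7sf2 (-0.18), of which the last did not pass the test. The difference for Pmvk was lost without library 1 (adjusted p = 0.121) or without library 2 (adjusted p = 0.0565), that for Msmo1 without library 1 (adjusted p = 0.796), and that for Ebp without library 2 (adjusted p = 0.322).

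**Figure D2:**
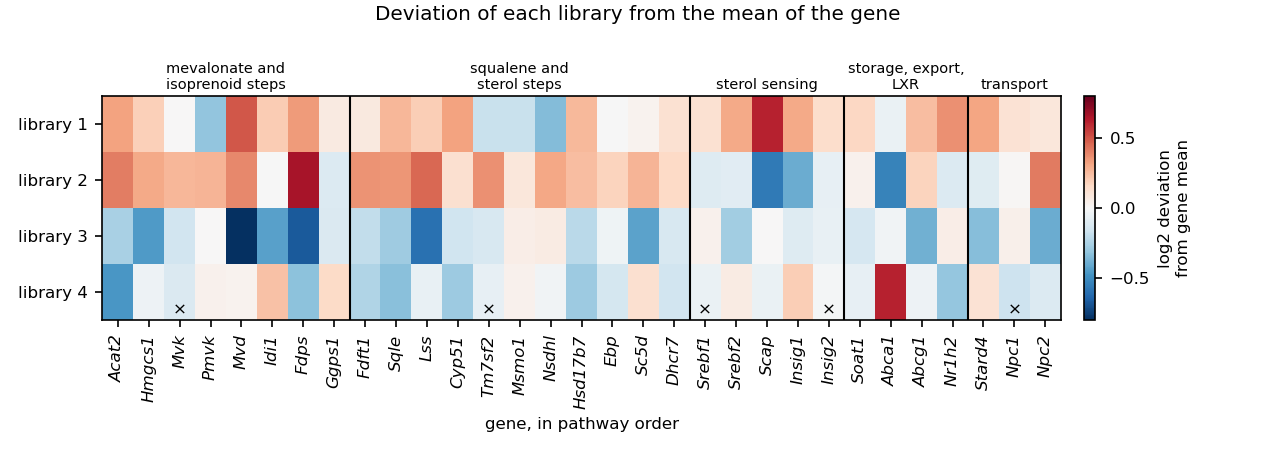
Log2 deviation of each library (rows) from the mean of each gene (columns), from counts on scaled library sizes, with red above and blue below the mean, and a cross in the lowest row for the 5 genes that did not differ between libraries at an adjusted p under 0.05. Library 3 is below the mean for most enzymes, with Mvd at -0.91 and Fdps at -0.67, while the genes of sterol sensing are highest in library 1.

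Each pair of libraries was also compared by the same test, again without a comparison at like counts. Between libraries 2 and 3, 20 of the 31 genes differed, against 44.2% of all genes tested. Of the 19 enzymes 13 were higher in library 2 and 0 were lower, where 23.2% of all genes were higher and 21% lower. The median enzyme difference was 0.46 in log2, beside 0.00 for all genes. Between libraries 1 and 3, 23 of the 31 differed (44.6% of all genes), 21 of them higher in library 1 (24.3% of all genes). The remaining 2 were enzymes that were higher in library 3. Between libraries 3 and 4, 13 differed (20.5% of all genes), 12 of them higher in library 4 (11.1% of all genes) and 1 in library 3 (9.41%). Libraries 1 and 2 differed for 17 (39.7% of all genes), with 9 higher in library 1 and 8 in library 2. Library 4 differed from library 1 for 19 genes (42.4%), with 16 higher in library 1 (23.0%) and 3 in library 4 (19.4%). It differed from library 2 for 18 (42.0%), with 13 higher in library 2 (22.0%) and 5 in library 4 (20.1%). These pairs share libraries, so they are not separate evidence of a low library 3 or a low library 4. Beside this pattern, the B cell markers were also lowest in library 3 for 6 of 7 genes, and the monocyte and macrophage markers had their lowest sum there. Treg markers went different ways. In TPM Cd4, Izumo1r and, by a small margin in library 3, Cd3e were lower in libraries 3 and 4. Foxp3, Ctla4, Ikzf2 and Tnfrsf18 were higher there, and the values of Il2ra overlapped. By scaled counts, 4 of the 8 Treg markers were lowest in library 1, 2 in library 3 and 2 in library 4. Mitochondrial genes took 2.73%, 3.75%, 3.64% and 3.90% of counts. The part of other cells or of RNA quality in the differences of the sterol genes was not tested.

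Promoter sequences were examined for what the enzymes share that the list did not use. RefSeq windows of the GRCm38.p6 build, 250 bases before to 50 bases after a transcription start, were matched for 25 of the 31 genes, in 33 windows. Fdps, Fdft1, Sqle, Abcg1, Stard4 and Npc1 had no window. The letters CCAAT, the box bound by the factor NF-Y, which is known to work beside SREBP at sterol genes, were found on either strand in 15 of the 19 enzyme windows. Over all 33 windows they were in 22 (66.7%), beside 37.4% of 32851 windows of all genes and 38.2% of 11285 windows of expressed genes. By gene, CCAAT was in a window of 15 of the 16 enzymes that had one, all but Acat2. A classical sterol response element, TCACNCCAC on either strand, was found for Hmgcs1 alone, in 1 of 33 windows, beside 1.24% of all windows, and a looser form, TCACNCNAC, which includes the first, for Hmgcs1 and Nsdhl, beside 2.70%. The Sp1-type box GGGCGG was in 26 of 33 windows (78.8%), beside 35.7% of all windows and 61.0% of those of expressed genes. CACGTG, the E-box, was in 7 (21.2%), beside 7.15% and 10.1%. A match of letters is not evidence of binding, and the absence of a match says only that these letters are not in this window.

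The 150 bases before the start are shown for the 4 enzymes that had a single window and the widest span between libraries, which include the enzyme without CCAAT, Acat2, and the gene with the sterol response element, Hmgcs1. They are, on the GRCm38.p6 build, chr8:122443423-122443572 on the minus strand (Mvd), chr10:76531455-76531604 on the plus strand (Lss), chr17:12960726-12960875 on the minus strand (Acat2) and chr13:119690201-119690350 on the plus strand (Hmgcs1), each written 5′ to 3′ on the gene's strand. Capitals mark TCACNCCAC or CCAAT, where ATTGG is CCAAT on the opposite strand.
Mvd: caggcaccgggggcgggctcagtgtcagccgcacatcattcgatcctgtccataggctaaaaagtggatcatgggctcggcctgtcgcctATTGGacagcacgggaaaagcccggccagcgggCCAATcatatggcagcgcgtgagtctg
Lss: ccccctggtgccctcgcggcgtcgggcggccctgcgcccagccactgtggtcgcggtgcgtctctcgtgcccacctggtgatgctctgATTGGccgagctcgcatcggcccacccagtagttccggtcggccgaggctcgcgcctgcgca
Acat2: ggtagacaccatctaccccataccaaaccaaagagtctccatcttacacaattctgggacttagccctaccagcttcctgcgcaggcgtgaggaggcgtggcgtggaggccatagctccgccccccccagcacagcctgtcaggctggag
Hmgcs1: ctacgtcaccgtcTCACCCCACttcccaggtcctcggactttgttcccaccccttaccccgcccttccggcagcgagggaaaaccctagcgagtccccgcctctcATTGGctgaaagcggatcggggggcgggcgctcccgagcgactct
Mvd had CCAAT at 2 places here, with first bases 60 and 27 bases before the start, and Lss had 1, 62 bases before it. Hmgcs1 carried its sterol response element 137 bases and a CCAAT 45 bases before the start.

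The 5 genes of sterol sensing were present at 10.1 to 31.1 TPM. Srebf2, the SREBP gene whose protein chiefly drives cholesterol synthesis, was at 37.8, 28.9, 27.0 and 30.5 TPM. Srebf1, whose proteins chiefly drive fatty acid synthesis, was at 16.6, 14.0, 20.3 and 12.0 TPM. In TPM of the whole gene Srebf2 was above Srebf1 in 4 of 4 libraries, by 1.00 ± 0.41 in log2(TPM + 0.1) (SD, n = 4). These ranges did not overlap. Coding forms held only 42.6% of the TPM of Srebf2, beside 70.2% of that of Srebf1, and the share was lower for Srebf2 in every library. The ratio of coding forms is therefore smaller, and it did not keep its sign in every library. By these shares, coding Srebf2 was above coding Srebf1 in libraries 1, 2 and 4 and below it in library 3. In library 3 coding forms held 36.5% of the TPM of Srebf2 and 53.6% of that of Srebf1. The margins were small in libraries 2 and 3. Insig2, the form that is less dependent on SREBP, was at 41.9, 27.7, 26.4 and 25.0 TPM. Insig1, itself an SREBP target, was at 22.7, 12.2, 16.9 and 20.2 TPM. In TPM of the whole gene Insig1 was below Insig2 in 4 of 4 libraries, by -0.75 ± 0.37 in log2. By expected counts Insig1 (398, 239, 315 and 272) was above Insig2 (372, 315, 340 and 245) in libraries 1 and 4. The leading coding forms, both of 2697 bases, held 97.3% of the TPM of Insig1 but 51.0% of that of Insig2. The order of these forms differed from that of the genes in libraries 1, 3 and 4. Insig1-201 had 396, 238, 312 and 271 expected counts, and Insig2-201 had 270, 266, 296 and 210. Insig1-201 was thus below Insig2-201 in library 2 only, and the margin in library 3 was small. Coding forms of any kind held 91.0% of the TPM of Insig2, so Insig2-201 does not stand for its whole coding level. Scap, the escort of SREBP, was at 13.7, 6.96, 8.22 and 11.6 TPM, the lowest mean of the 5.

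By scaled counts library 1 was the highest for all 5 of these genes, where 26.3% of all genes peaked in it, and by TPM for 4 of 5, since Srebf1 then peaked in library 3. Library 2 was the lowest for 4 of the 5 by scaled counts, where 26.6% of all genes had their lowest value in it, and for 2 of the 5 by TPM. Scap had the widest span of the 5, with counts of 244, 105, 168 and 113 and log2 deviations of 0.62, -0.57, 0.00 and -0.05 (adjusted p = 2.01e-11). Srebf2 (adjusted p = 1.41e-13) and Insig1 (adjusted p = 8.95e-09) also differed, while Srebf1 (adjusted p = 0.229) and Insig2 (adjusted p = 0.221) did not pass. Library 1 also held the most globin and B cell marker RNA, whose part was not tested.

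Storage and export were uneven. Abcg1, an exporter of cholesterol to lipoprotein particles and an LXR target, was at 113, 94.4, 72.5 and 89.6 TPM. Abca1, the exporter to lipid-poor apolipoprotein and also an LXR target, was at 1.92, 1.21, 2.29 and 2.95 TPM. The ranges were far apart in every library, with a log2 ratio of 5.45 ± 0.65 (SD, n = 4), about 43.6-fold, while the M4 counts, in which Abcg1 was 8.79 times lower, gave a log2 ratio of 3.02. Across libraries they also went different ways: Abcg1 was the highest in library 1 and the lowest in library 3 (adjusted p = 2.03e-89), and Abca1, with counts of 137, 96, 147 and 161, was the highest in library 4 and the lowest in library 2 (adjusted p = 2.48e-08). Soat1, which esterifies cholesterol for storage, was at 49.7, 35.0, 43.2 and 39.2 TPM. Its difference between libraries (adjusted p = 1.63e-04) was lost without library 1 (adjusted p = 0.0746). Nr1h2, the LXR beta receptor, was at 48.5, 31.7, 39.6 and 31.3 TPM (adjusted p = 7.30e-10), with libraries 1 and 3 above libraries 2 and 4.

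Several steps of the pathway have an alternative gene. The genes set beside the members here were chosen after their values were seen, so they show no general pattern. Soat2, the other esterification enzyme, was at 0.908 TPM ± 0.461 (SD, n = 4) beside Soat1 at 41.7 ± 6.25. Nr1h3, the LXR alpha receptor, was at 0.785 TPM ± 0.414 beside Nr1h2 at 37.8 ± 8.09. Abcg4, a close relative of Abcg1, was listed at 0 in 3 libraries and at 0.0700 TPM in library 4. Idi2, the relative of Idi1, was listed at 0 in all 4 libraries. Acat1, the mitochondrial thiolase, was at 47.7 TPM ± 5.74, beside Acat2 at 41.5 ± 10.8, and the libraries' ranges overlapped. Lbr, a nuclear envelope protein that also has the sterol reductase activity of Tm7sf2, was at 260 TPM ± 41.6, beside Tm7sf2 at 6.02 ± 0.742.

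**Figure D3:**
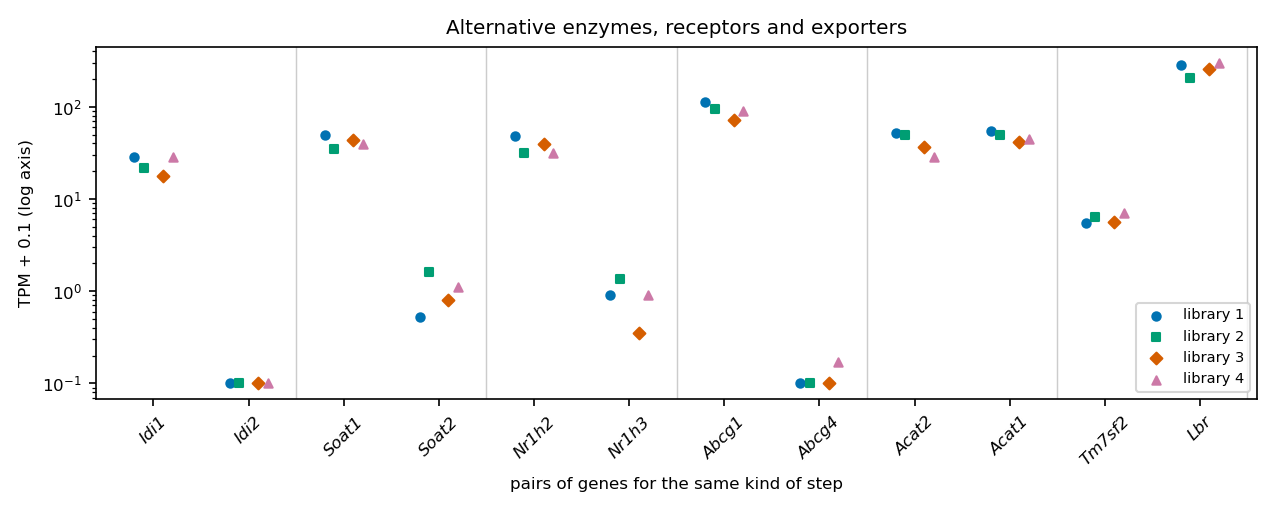
TPM + 0.1 on a log axis for pairs of genes that serve the same kind of step, the listed gene first and the alternative second, with 1 marker per library. Idi2 is listed at 0 in all 4 libraries, while Lbr, at 204 to 298 TPM, is above Tm7sf2 in each.

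Transport was represented by 3 genes. Npc2, the soluble protein that hands cholesterol on inside lysosomes, was at 132, 145, 91.5 and 111 TPM and was above 90.0% of the expressed coding genes. Npc1, the membrane protein that receives it, was at 18.9, 16.8, 17.5 and 16.6 TPM. Npc2 was above Npc1 by 2.76 ± 0.30 in log2 (SD, n = 4). Npc2 differed between libraries (adjusted p = 7.74e-99), with library 2 highest and library 3 lowest, while Npc1 did not pass (adjusted p = 0.0880). Stard4, a cytosolic sterol carrier, was at 14.2, 7.29, 7.36 and 10.9 TPM (adjusted p = 5.45e-06), with library 1 the highest.

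Other genes around the pathway were described by list, with the share that differed between libraries to be read against the 68.6% of all genes. The 9 genes of SREBP processing and sterol-regulated degradation had a median of 14.9 TPM, from Erlin1 at 2.94 to Rnf145 at 53.3 and Aup1 at 369 TPM, and 7 of 9 differed. For 11 fatty acid synthesis genes that SREBP also drives the median was 8.53 TPM, from Me1 at 0.0350 and Fads2 at 0.0825 to Acly at 68.3 and Elovl5 at 113 TPM. Of the 9 that could be tested 8 differed, and 7 of the 9 were highest in library 1 by scaled counts. Sterol uptake and transport, 22 genes, had a median of 9.87 TPM, from Vldlr at 0.0100 and Cav1 at 0.0125 to Gramd1a at 73.4 and Lipa, the lysosomal lipase that frees cholesterol, at 79.3 TPM, and 13 of 18 tested genes differed. The 14 users of isoprenoids had a median of 15.8 TPM, from Chml at 0.258 and Icmt at 3.52 to Rabggtb at 36.6 and Rabggta, a subunit of the enzyme that prenylates Rab proteins, at 58.6 TPM, and 9 of 13 differed. Among 10 oxysterol genes and LXR partners the median was 0.581 TPM, and 4 of 4 tested genes differed. Ch25h and Cyp46a1, which make oxysterols, were listed at 0, while Rxrb was at 7.82 and Gpr183, a receptor for an oxysterol, at 102 TPM. Of 6 further synthesis genes matched, the highest of them Acat1 and Lbr, the median was 1.49 TPM and 4 of 4 tested genes differed.

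Transcript tables showed which forms carried these levels. For 30 of the 31 genes the form with the most TPM was protein coding, and for 15 it held at least 80% of the gene's TPM. The median share of coding forms was 87.8%. In Mvd, Idi1, Nsdhl, Insig1, Abca1, Abcg1 and Npc2 it held 95.6% to 99.7%. For Mvd the table made from the reads gave a lower share, 58.0%, with 42.0% in a form marked for nonsense-mediated decay. Forms that retain an intron held at least 20% of TPM in 7 genes. They made 59.3% ± 7.02 of Npc1 (SD, n = 4), 57.4% ± 8.36 of Srebf2, 54.0% ± 7.65 of Scap and 38.8% ± 5.77 of Lss, and lower shares of Soat1 (31.4%), Ebp (25.5%) and Tm7sf2 (24.2%). The coding level of Srebf2 and Scap was thus under that of the gene as a whole. For Srebf2 the retained-intron share was 50.5%, 65.6%, 63.5% and 49.8% in libraries 1 to 4, above that of its coding forms in libraries 1, 2 and 3. Shares of TPM weigh short forms up: by expected counts the retained-intron share was 36.2% for Srebf2, 32.7% for Scap, 42.6% for Npc1 and 32.2% for Lss. It was 4.61% for Soat1, 21.7% for Ebp and 29.0% for Tm7sf2. In Npc1 the leading form, Npc1-206, was a retained intron form of 2219 bases with 49.2% of TPM but 28.8% of counts, and by counts the full coding form Npc1-201 led. Forms marked for nonsense-mediated decay made 24.0% ± 3.58 of the TPM of Ggps1 and 22.6% ± 6.91 of that of Fdft1, and 14.5% and 6.47% of their expected counts. Srebf1 had 68.5% ± 14.0 of its TPM in the coding form Srebf1-201, which starts at 60220604 on the minus strand of chromosome 11.

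**Figure D4:**
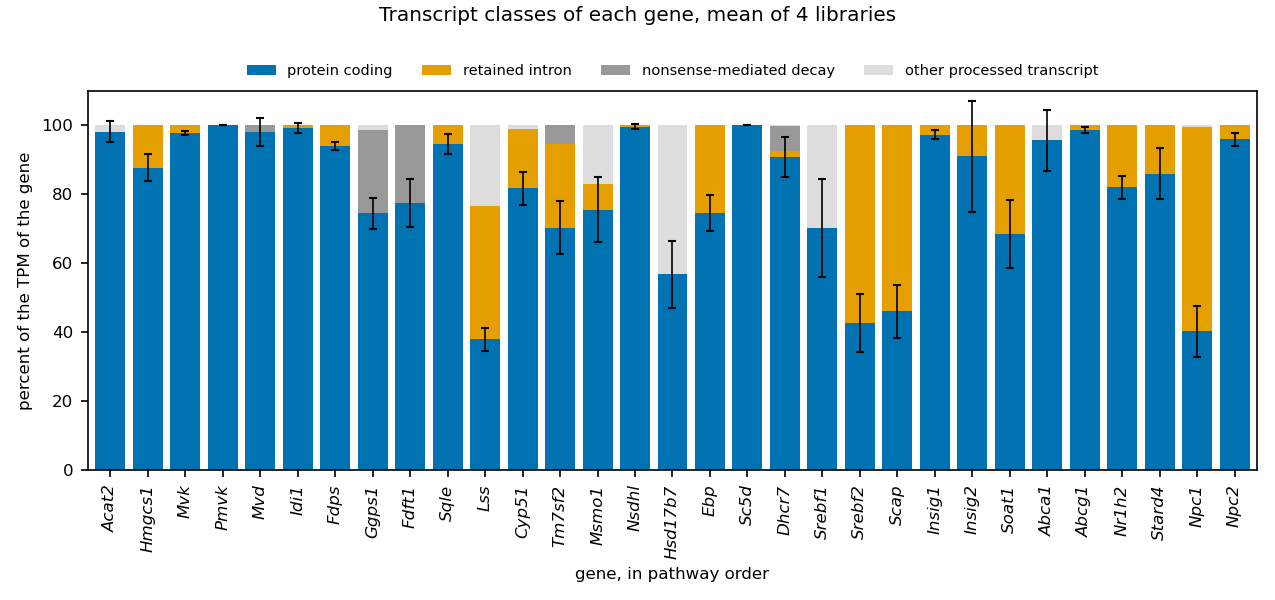
Share of each gene's TPM in protein coding, retained intron, nonsense-mediated decay and other transcripts, as the mean of 4 libraries, with the SD of the coding share as bars. Npc1, Srebf2, Scap and, by a small margin, Lss have more retained intron than coding TPM.

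The leading form was the same in the table made from the reads for 27 of the 31 genes, the others being Srebf2, Scap, Nr1h2 and Stard4, and the same by expected counts for 29, the others being Soat1 and Npc1. Where genes overlap, reads may be shared, and the strand setting of the counting is not given in the sources used here. An expressed coding gene on the opposite strand overlaps Fdft1 (Ctsb, 416 TPM), Cyp51 (Akap9, 136 TPM), Npc1 (Rmc1, 77.9 TPM), Ggps1 (Arid4b, 39.0 TPM) and Srebf1 (Rai1, 7.71 TPM). Vps51, at 28.2 TPM, overlaps Tm7sf2 on the same strand. Levels of these 6 members are uncertain to that extent.

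Counts on the older GENCODE M4 annotation differed for some members. Over 10913 genes the median difference from the M21 counts was 0.08 in log2 CPM, and 16.9% of genes were over 2-fold lower in M4. Among the 31 this held for 5: Abcg1, with an M21 CPM 8.79 times that of M4, Idi1 (6.75 times), Insig1 (6.11 times), Stard4 (2.48 times) and Acat2 (2.09 times). For Abcg1 the M21 counts were 4467, 4171, 3031 and 2702 and the M4 counts 549, 340, 411 and 439. With M4 counts the log2 ratio of Insig1 over Insig2 was -3.09. For Idi1 the difference between libraries was lost (adjusted p = 0.173), while Mvk, Tm7sf2, Insig2 and Npc1 passed with M4 counts (adjusted p = 0.0222, 4.56e-04, 2.14e-04 and 4.96e-03). The sign of both ratios, Abcg1 over Abca1 and Insig1 over Insig2, was the same in both tables.

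**Figure D5:**
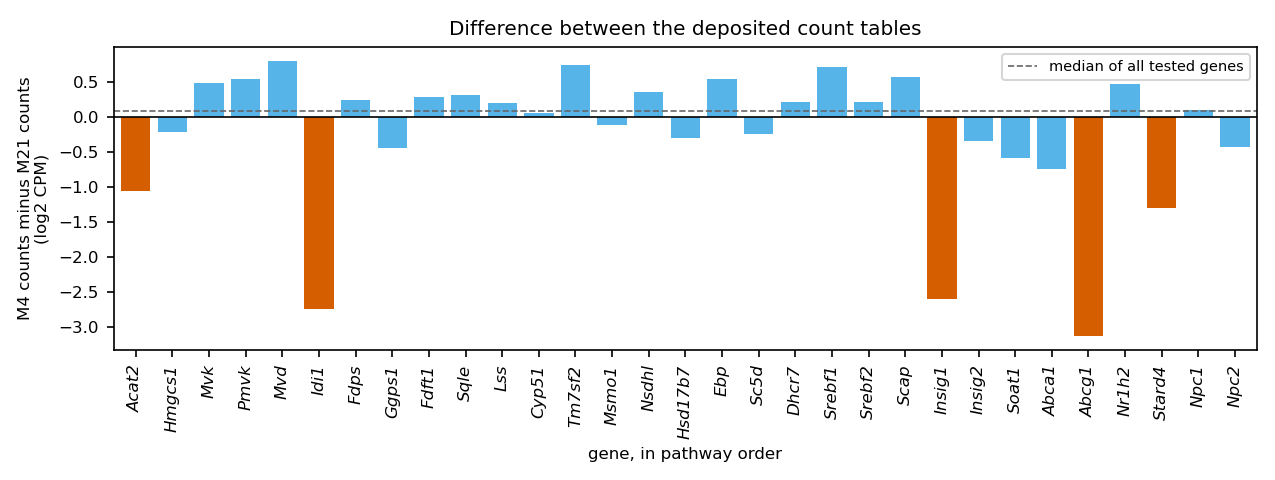
Difference between the M4 and M21 count tables for each gene in log2 CPM, with orange bars for genes more than 2-fold lower in M4 and a dashed line at the median of all tested genes (0.08). Abcg1, Idi1 and Insig1 are the furthest below the line in M4.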

How the data were processed

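Expected counts and TPM per gene and per transcript, with each transcript's percent of its gene's TPM, were deposited on mm10 with GENCODE M21, per the file headers and the submitters' notes. The authors also deposited estimated counts and TPM made from reads and an index on M21, and gene counts in whole numbers on GENCODE M4. No program or strand setting for these tables is given in the sources used here. Rows that name no gene held 0.133% to 0.504% of expected counts and were left out.

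Members and lists were chosen with earlier results of these data known. All members are named, and of each other list the 2 highest and 2 lowest by mean TPM, plus the genes said to be chosen after their values were seen. Some genes that this rule names are not reported here. Expected counts were rounded. Shares of counts were compared between libraries with a Poisson likelihood ratio test on TMM-scaled sizes (edgeR 4.0.16, R 4.3.3) over the 13045 genes whose mean count reached 10, and p-values were adjusted over all of them (Benjamini-Hochberg, threshold 0.05). The test was checked on simulated Poisson counts only, which lack the extra spread between these libraries, so the check does not cover that spread. Deviations used log2 CPM with 0.5 counts added. A pseudocount understates folds of low genes. Alternatives were DESeq2 1.42.0 size factors, no filter, the other tables, other scalings and leaving out each library. M4 counts were divided by the M21 effective length (at least 50 bases) to compare genes, and 22195 of 22457 M4 genes matched. With 1 group, no edgeR quasi-likelihood test was made. The remaining work was done in Python 3.11.15 (scipy 1.17.1, pandas 2.3.3, numpy 2.4.6), and figures were drawn with matplotlib 3.10.9.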

Additional observations from a re-analysis of the deposited data

Results flagged for a closer look

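Of the 31 genes, Insig2 alone had a library far from the other 3 in TPM, by Dixon's ratio (0.844, above the critical value for 4 samples): library 1, at 41.9 TPM, beside 25.0 to 27.7 TPM in the others. Chance alone would single out about 1 gene in 20, so 1 of 31 is not more than chance gives. Its expected counts, at 372, 315, 340 and 245, did not differ between libraries once scaled (adjusted p = 0.221 by the Poisson test on edgeR-scaled sizes). Retained intron forms made 33.0% of the TPM of Insig2 in library 1 and 1.66%, 1.29% and 0% in libraries 2 to 4. The leading coding form Insig2-201 made 36.1%, 48.4%, 58.1% and 61.4% of it. The 33.0% in library 1 came from 1 form of 334 bases, Insig2-206, with only 16.3 of the 372 expected counts. The part of that mix in the TPM of library 1 was not tested.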

How the results depend on the processing

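The number of sterol genes that differed between libraries, 26 of 31, was 26 with DESeq2 size factors or no filter, 27 in the table made from the reads, 29 with M4 counts and 23 to 26 with a library left out. The share of all genes moved too: 68.5% with DESeq2 size factors, 37.3% with no filter and 62.5% in the table made from the reads. It was 78.5% with M4 counts and 53.9% to 62.0% with a library left out. The calls of single genes that these settings changed are given with the genes above, apart from these: in the table made from the reads Tm7sf2 (adjusted p = 0.0119) and Srebf1 (0.0325) passed and Msmo1 (0.0668) did not, and Npc1 passed without library 2 (0.0499). The median level of the 31 genes, 29.2 TPM, was 15.6 TPM in the table made from the reads, where the median shift of all genes was -0.85 in log2, 23.7 with length-scaled M4 counts, 36.7 with TPM over nuclear coding genes and 49.9 as CPM without length, and 26.4 to 30.5 TPM with a library left out. Of the 7 pairs, 6 kept their sign under every alternative run, and Hmgcs1 over Acat2 reversed to 0.59 with M4 counts. Settings added after seeing the data left library 3 the lowest for 10 to 14 of the 31 genes, and 13 to 15 enzymes higher and 0 lower in library 2 than in library 3. No paired analysis was possible because there is 1 group only. Low counts limit Tm7sf2 (35 to 63 per library), Mvk (73 to 127) and Mvd (60 to 152), and all values rest on 1 biological sample.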
